A study of Mus musculus with 24 samples.

Results

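The comparison set Tet2-knockout against wild-type mouse bone marrow-derived macrophages (BMDM) late in their response to interleukin 4 (IL4), in 4 of the 24 samples of the series, chosen by their labels. All 4 came from mice of strain C57BL/6. Marrow cells were grown for 7 days in medium with L929-conditioned medium and M-CSF, rested overnight without either, and given IL4 at 20 ng/ml for 24 h, and their RNA was sequenced after removal of ribosomal RNA. The labelled knockout and the wild-type group had 2 biological replicates each, and the labels do not give the age of these mice, the part of Tet2 that was removed, or whether replicates came from separate animals, so p-values measure the spread between these libraries. The other 8 BMDM libraries, untreated (0 h) or after 10 h of IL4 in both genotypes, were used for the spread and for comparison. A second set, 4 wild-type and 4 labelled knockout (described as myeloid) libraries of tumour-associated macrophages (TAM), was set beside them. These were CD11b+F4/80+ cells sorted from YUMM1.7 melanomas 4 weeks after injection into C57BL/6J males aged 6 to 8 weeks, and were prepared from polyadenylated RNA.

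TET2 oxidises 5-methylcytosine in DNA to 5-hydroxymethylcytosine, a step toward removal of the methyl group, and its loss in blood stem cells favours expansion of myeloid clones. IL4 acts through its receptor and the transcription factor STAT6 and turns macrophages toward alternative activation, marked by arginase, chitinase-like proteins, resistin-like molecules and lectin receptors, and can drive macrophages to divide. Dividing cells switch on DNA replication genes through E2F factors in S phase, and mitotic genes through the CHR element, bound by the DREAM and B-Myb complexes, in G2 and M phase.

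Levels are FPKM, fragment numbers divided by the transcript's length and the library's size, as the authors deposited them. Differences are labelled knockout minus wild type on the log2(FPKM + 1) scale, which understates the change of low genes, and are given with the standard error (SE) from limma. A gene passed the test, and is then said to have risen or fallen, when its limma p was under 0.05 after Benjamini-Hochberg adjustment across all 10510 genes tested. The 4 libraries had total FPKM of 435062 to 557183, and the noncoding RNA gene Rpph1 took 11.0% to 15.5% of it. FPKM hold no counts, so read depth is unknown. From the step between low values, depth relative to the first BMDM library was 0.951 and 0.869 in wild-type replicates 1 and 2 and 1.3 and 1.08 in labelled knockout replicates 1 and 2.

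The targeted gene did not follow its label. Tet2 had 9.38 and 9.82 FPKM in the wild-type libraries and 11.3 and 10.3 FPKM in the labelled knockout libraries after 24 h of IL4. The labelled knockout values were the higher ones, and the difference of 0.16 ± 0.13 (SE) did not pass (adjusted p = 0.506). The labels do not give the deleted part, so the level of the whole gene does not check the genotype, and "labelled knockout" is used throughout. Tet3 did not pass either, with 2.25 and 3.03 FPKM against 3.23 and 2.78 FPKM, and Tet1 was at or under 0.00478 FPKM in all 4 libraries. Xist, expressed from the inactive X chromosome of females, was at 0 in all 4 libraries, and the Y-linked genes Ddx3y, Eif2s3y, Kdm5d and Uty were expressed in each, so sex did not separate the groups. The 9 macrophage markers had a summed level of 10620 and 12670 FPKM in wild type and 7888 and 7952 FPKM in the labelled knockout. Itgam, Fcgr1, C1qa and Cd14 of these fell and none rose, with a median difference of -0.39. Of all genes tested, 2.14% fell and 5.29% rose, with a median of 0.04.

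After 24 h of IL4, genes of DNA replication, mitosis and histone synthesis were higher in labelled knockout macrophages, as were collagen and other matrix genes, while arginase and single genes of antigen processing, complement, coagulation and antibody binding, such as Ifi30, C1qa, F10 and Fcgr4, were lower. In all, 556 genes rose and 225 fell, 5.29% and 2.14% of those tested and 7.43% together. The wild-type and labelled knockout values did not overlap for any of these 781 genes, and for 50.5% of all genes tested. Most differences were small on the log2(FPKM + 1) scale. As a fold of FPKM + 1, 480 of the 781 were under 1.5-fold, and 23 of the higher and 35 of the lower genes reached 2-fold. The ratio of the FPKM values themselves is larger, most of all for low genes, so more genes than these can reach 2-fold in FPKM. Genes with a name made up 521 of those that rose and 190 of those that fell, and the rest were models known only by a number or small RNA genes. The share of calls in the higher direction depended on the scaling. It was 71.2% with FPKM as deposited, 46.4% after division by median-of-ratios factors (529 higher, 610 lower) and 54.1% after quantile normalization (588 higher, 499 lower). The median difference of all genes was 0.04 on the deposited scale. Single libraries also weighed on the counts: 93 genes rose and 57 fell without labelled knockout replicate 1, 64 and 82 without labelled knockout replicate 2, 514 and 737 without wild-type replicate 1, and 499 and 114 without wild-type replicate 2.

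**Figure D1:**
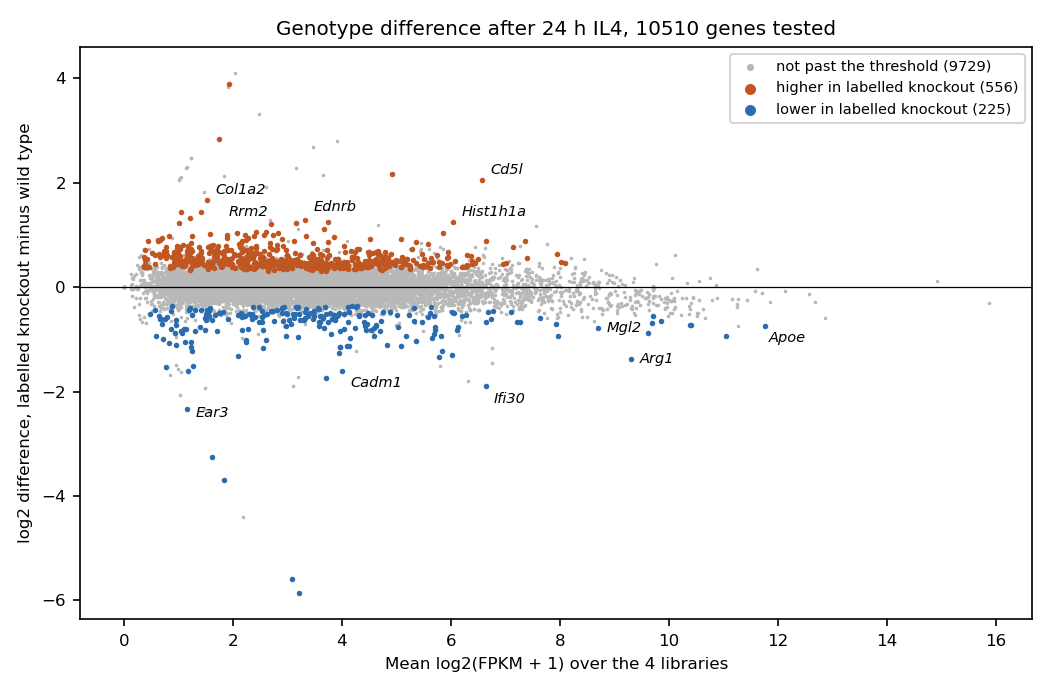
Each point is a gene; the x axis gives its mean log2(FPKM + 1) over the 4 libraries after 24 h of IL4 and the y axis the log2 difference, labelled knockout minus wild type. The 556 genes that rose and 225 that fell are coloured; Arg1 and Apoe are among the most abundant of those that fell, and Cd5l stands high at a level where few other genes rose.

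The genes of DNA replication moved in 1 direction. Of 50 tested members of the list, 20 rose and none fell, against 5.29% of all genes that rose, and their median difference was 0.40. Uhrf1, a partner that guides DNMT1 to DNA just copied, had 3.19 and 3.29 FPKM in wild type and 8.08 and 7.51 FPKM in the labelled knockout. Both labelled knockout values lay well above both wild-type values, and the ratio of means was 2.41 (log2 difference 1.05 ± 0.09, adjusted p = 0.000216). Rrm2, the regulated subunit of ribonucleotide reductase that makes deoxynucleotides, had 1.94 and 1.96 FPKM in wild type and 4.98 and 5.1 FPKM in the labelled knockout, a ratio of 2.58. Pola1, the catalytic subunit of the polymerase that primes replication, had 3.04 and 2.77 FPKM against 5.45 and 5.65 FPKM. Both pairs were tight and far apart. Of the MCM helicase, which unwinds DNA at the fork, Mcm3, Mcm4, Mcm5, Mcm6 and Mcm7 rose, and Mcm2 did not pass (5.07 and 5.59 FPKM against 6.9 and 7.32 FPKM). Mcm4 showed the smallest p of the complex, with 4.85 and 4.08 FPKM in wild type and 7.68 and 8.14 FPKM in the labelled knockout. Hells, a chromatin remodeler needed for DNA methylation, had 1.62 and 1.09 FPKM against 2.96 and 3.23 FPKM, also without overlap. The sliding clamp gene Pcna, the most abundant of these, had 233 and 232 FPKM against 292 and 351 FPKM and did not pass (0.46 ± 0.14, adjusted p = 0.0694). Without labelled knockout replicate 1 or 2, 7 and 5 members passed, all higher, and 12 passed with a pseudocount of 0.1 and 9 when 1 FPKM was required in every library.

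The start regions of these genes were read to show the sequences that the cell cycle factors recognise. In the 250 bases before each listed start (RefSeq, build GRCm38.p6, not the build of the expression values), E2F sites were searched on both strands as TTTCCCGC, TTTGGCGC or TTTCGCGC. Of 43 replication genes matched to the table, 11 held at least 1 of them (25.6%), against 480 of 27025 genes (1.78%). Among the 17 matched members that rose, 7 did. Below, 1 site of each gene is in capitals and the bases around it are in lower case, in the direction of the gene. A site on the opposite strand thus appears as its reverse complement. In Mcm5 and Mcm6 the string TTTCGCGC, in Mcm6 as its reverse complement, overlaps the marked site and is partly in lower case.
Uhrf1: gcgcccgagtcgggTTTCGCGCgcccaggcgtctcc
Pola1: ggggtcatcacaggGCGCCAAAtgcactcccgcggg
Hells: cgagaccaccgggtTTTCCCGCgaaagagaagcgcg
Mcm5: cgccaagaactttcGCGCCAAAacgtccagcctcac
Dtl: aagcgtgacgtcagTTTGGCGC
Mcm7: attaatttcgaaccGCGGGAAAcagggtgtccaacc
Mcm6: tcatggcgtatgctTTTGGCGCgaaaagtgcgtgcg
The stretches lie for Uhrf1 at chr17:56304114-56304149 (forward strand), for Pola1 at chrX:93632272-93632307 (reverse strand), for Hells at chr19:38930914-38930949 (forward strand), for Mcm5 at chr8:75109346-75109381 (forward strand). Those of the others lie for Dtl at chr1:191575545-191575566 (reverse strand), for Mcm7 at chr5:138172027-138172062 (reverse strand), for Mcm6 at chr1:128359794-128359829 (reverse strand). The sites of Dtl and Hells lie nearest to the start, 8 and 62 bases before it, and that of Uhrf1 lies 185 bases before the second of its listed starts. A match is a description of the letters and not a test of binding.

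Genes of G2 phase and mitosis rose in the same libraries. Of 50 tested members, 28 rose, against 5.29% of all genes, and none fell, with a median difference of 0.47. Top2a, the topoisomerase that untangles replicated chromosomes, had 6.94 and 5.56 FPKM in wild type and 12.6 and 14 FPKM in the labelled knockout, a ratio of 2.13. Smc2, a condensin subunit, had 4.92 and 4.57 FPKM against 8.52 and 9.42 FPKM (0.79 ± 0.10, adjusted p = 0.00203). The values of neither gene overlapped between the groups. Cdk1, the kinase that drives entry into mitosis, had 2.93 and 3.37 FPKM against 6.24 and 5.63 FPKM, and its partner cyclin Ccna2 had 4.05 and 3.58 FPKM against 7.27 and 7.91 FPKM. Aurka, a kinase of the spindle poles, rose from 1.48 and 1.59 FPKM to 3.5 and 3.27 FPKM. The list did not move as a block. Mki67, a common marker of cycling cells, had 3.02 and 2.81 FPKM against 3.12 and 3.52 FPKM and did not pass (0.14 ± 0.10, adjusted p = 0.435). Without labelled knockout replicate 1 or 2, 15 and 6 members passed, all higher, and 11 passed with a pseudocount of 0.1 and 8 when 1 FPKM was required in every library.

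The CHR element was searched in the same windows as TTTGAA on both strands and as its variant TTCGAA, which reads alike on both. No CHR string is contained in an E2F string or in CCAAT. Of 52 mitotic genes matched, 19 held one (36.5%), against 5284 of 27025 genes (19.6%). The share was as high among the matched genes of alternative activation (11 of 30, 36.7%), so the element did not set mitotic genes apart from that list. The CCAAT box, bound by NF-Y and common in start regions, was held by 37 of the 52 (71.2%) and by 26 of the 43 replication genes (60.5%), against 37.5% of all genes. The element is in capitals below for the 5 members with the smallest p among those that rose and hold one.
Smc2: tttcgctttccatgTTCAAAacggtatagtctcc
Top2a: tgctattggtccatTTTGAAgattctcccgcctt
Cdk1: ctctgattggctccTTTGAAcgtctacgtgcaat
Prc1: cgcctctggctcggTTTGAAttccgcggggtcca
Kif11: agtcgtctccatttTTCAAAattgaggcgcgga
They lie for Smc2 at chr4:52439062-52439095 (forward strand), for Top2a at chr11:99024349-99024382 (reverse strand), for Cdk1 at chr10:69352964-69352997 (reverse strand), for Prc1 at chr7:80294432-80294465 (forward strand), for Kif11 at chr19:37376349-37376381 (forward strand). Kif11 encodes the motor that separates the spindle poles and Prc1 the protein that bundles the microtubules between dividing daughter cells, and their elements lie 19 and 30 bases before the start.

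The 120 bases before the start are shown for 2 replication genes, with the CCAAT box in capitals. These 2 genes had the smallest p among the matched members that rose and hold a searched string in those bases.
Uhrf1: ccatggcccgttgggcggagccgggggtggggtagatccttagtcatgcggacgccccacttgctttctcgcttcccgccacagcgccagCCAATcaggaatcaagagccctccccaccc
Rrm2: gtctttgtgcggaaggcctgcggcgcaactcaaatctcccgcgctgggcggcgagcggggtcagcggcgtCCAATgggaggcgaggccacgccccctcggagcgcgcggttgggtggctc
These lie on the forward strand at chr17:56303217-56303336 for Uhrf1, before the first of its listed starts, and at chr12:24708134-24708253 for Rrm2. Each window holds 1 CCAAT box, 30 and 50 bases before the start.

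Replication-dependent histone genes, whose messages carry no poly(A) tail and are made in S phase, were measured in these libraries, which were made by removing ribosomal RNA and not by selecting poly(A) RNA. Of 62 tested, 18 rose, against 5.29% of all genes, and none fell, with a median difference of 0.62. Hist1h1a, a linker histone gene, had 43.6 and 40 FPKM in wild type and 99.7 and 101 FPKM in the labelled knockout, a ratio of 2.4 (1.24 ± 0.17, adjusted p = 0.00364). The H2A gene Hist1h2ak had 26.1 and 33.8 FPKM against 55.3 and 53.8 FPKM, and the H4 gene Hist1h4k had 99.1 and 118 FPKM against 189 and 180 FPKM. In each of these the 2 groups lay apart. Members share coding sequence closely within a histone class, and the counting could divide reads between copies, so a value of a single gene is uncertain. The count rested on single libraries: 33 rose and 1 fell without wild-type replicate 2, 10 rose without wild-type replicate 1, and 2 and 3 rose without labelled knockout replicate 1 or 2.

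Among 29 tested regulators of the cycle, 4 rose, against 5.29% of all genes. Cyclin D1 (Ccnd1), which opens the G1 phase with CDK4 or CDK6, had 7.33 and 8.18 FPKM in wild type and 17.8 and 18 FPKM in the labelled knockout (1.11 ± 0.11, adjusted p = 0.000653). Cyclin E2 (Ccne2), which acts at the start of S phase, had 0.595 and 0.479 FPKM against 1.57 and 1.69 FPKM, low values in all 4 libraries. Cdk6 and Rbl1, which encodes the retinoblastoma relative p107, rose by less (0.49 and 0.40). Of the list 1 member rose without labelled knockout replicate 1 or 2, 2 rose and 1 fell without wild-type replicate 1, 2 rose with a pseudocount of 0.1, and 3 rose and 1 fell under both other scalings. Myc, a driver of growth that IL4 induced in both genotypes, did not differ beyond its spread (2.43 and 3.42 FPKM against 2.6 and 3.11 FPKM).

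**Figure D2:**
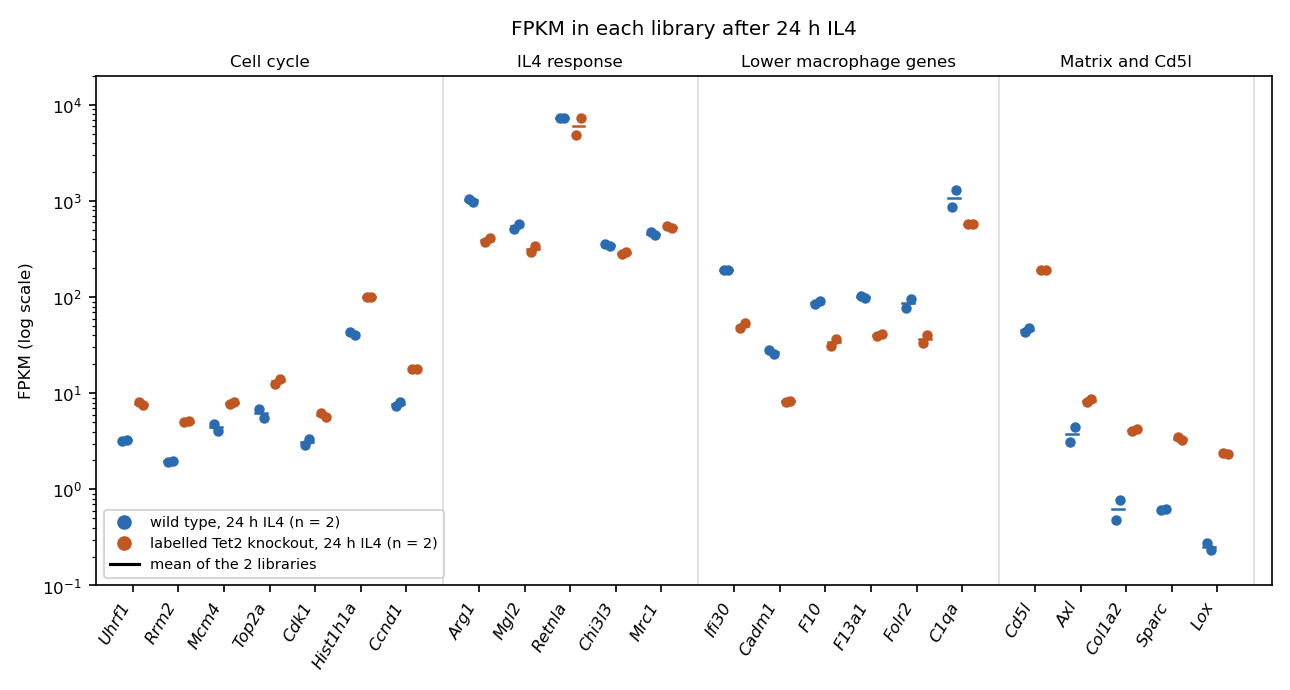
Points give FPKM (log axis) in each library after 24 h of IL4 and short lines the mean of the 2 libraries of a group, for 23 genes in 4 sets. The groups lie apart for the genes shown other than Retnla, where the labelled knockout libraries spread from 4910 to 7317 FPKM.

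Arginase and a few other genes of alternative activation fell. Of 38 tested, 5 fell and 2 rose, against 2.14% and 5.29% of all genes, so that the share that rose was near that of all genes, and the median difference was 0.06. Arg1, the enzyme that breaks arginine down to ornithine, had 1065 and 991 FPKM in wild type and 373 and 417 FPKM in the labelled knockout. The labelled knockout thus held 2.6 times less, with both libraries far from both wild-type ones (-1.38 ± 0.12, adjusted p = 0.000284). Before IL4 the same gene stood between 1.03 and 1.63 FPKM in all 4 libraries, and IL4 raised it by 8.87 in wild type and 7.28 in the labelled knockout on the log2 scale, effects that share libraries with the genotype difference. Mgl2, a C-type lectin receptor, had 509 and 585 FPKM against 295 and 342 FPKM (-0.78 ± 0.17, adjusted p = 0.0237). Vegfa, an angiogenic growth factor, had 19.1 and 21 FPKM against 10.7 and 10.7 FPKM. Il1rn, the decoy ligand of the interleukin 1 receptor, had 10.1 and 11.4 FPKM against 6.27 and 6.97 FPKM, and fibronectin (Fn1) 33.2 and 43.3 FPKM against 25.4 and 26.1 FPKM. The 5 that fell did so without overlap. Tfrc, the transferrin receptor, rose from 223 and 215 FPKM to 309 and 300 FPKM, and the adhesion gene Cdh1 rose by 0.42 at levels under 2 FPKM.

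The other classical markers did not pass. Retnla had 7337 and 7285 FPKM in wild type and 4910 and 7317 FPKM in the labelled knockout, so that the groups overlapped (-0.29, 95% interval -0.69 to 0.12). Chi3l3, a chitinase-like protein, had 358 and 341 FPKM against 284 and 299 FPKM (-0.26, -0.57 to 0.05). The mannose receptor Mrc1 had 475 and 442 FPKM against 549 and 527 FPKM (0.23, -0.06 to 0.52). These intervals do not show that the genes were alike in the 2 groups. Il4ra, the receptor chain for IL4, had 16.2 and 22.7 FPKM against 21.5 and 18.8 FPKM, and the STAT6 targets Socs1, Cish and Egr2 did not pass. Of the 30 list members in the promoter table, 5 held a STAT6 site, searched as TTC and GAA with 4 bases between them, in the 250 bases before a start (16.7%, against 6.76% of all genes). Without labelled knockout replicate 1 or 2, 2 list members fell and none rose, without wild-type replicate 2, 2 fell and 4 rose, and with quantile normalization 5 fell and 5 rose.

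One gene of the eosinophil-associated ribonuclease family went further. Ear3 had 3.8 and 4.25 FPKM in wild type and was listed at 0 in both labelled knockout libraries (-2.33 ± 0.16, adjusted p = 6.83e-05), for which no fold is given. Its close relatives Ear2 (55.7 and 49.8 FPKM against 54.4 and 75.8 FPKM) and Ear11 (378 and 415 FPKM against 295 and 421 FPKM) did not pass and overlapped. The family's copies are nearly alike and a 0 in a file of estimates can be a failed estimate, so the value of Ear3 is uncertain.

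Ifi30, the lysosomal thiol reductase that prepares antigens for MHC class II, had 190 and 194 FPKM in wild type and 47.6 and 53.9 FPKM in the labelled knockout, 3.78 times lower (-1.90 ± 0.10, adjusted p = 3.61e-05). It and H2-Ab1, the class II beta chain (54.9 and 86.8 FPKM against 33.7 and 44 FPKM), were the 2 that fell of 10 tested genes of class II presentation, against 2.14% of all genes. Neither pair of groups overlapped. Fcgr4, a receptor for IgG2 antibodies, had 22.1 and 25.7 FPKM against 12 and 11.4 FPKM, and the high-affinity receptor Fcgr1 had 29.6 and 32.8 FPKM against 17.3 and 19.2 FPKM. Of 26 tested genes of complement and macrophage identity, 6 fell, against 2.14% of all genes, and none rose, with a median of -0.24. The macrophage markers share C1qa with this list, so they are not a fully separate reading. Of these markers 4 of 9 were lower as given above, and their part in the list was not tested. C1qa, a chain of the first complement component, had 875 and 1292 FPKM against 576 and 576 FPKM. Folr2, a folate receptor of resident macrophages, had 78.1 and 96 FPKM against 33 and 40.3 FPKM (-1.22 ± 0.15, adjusted p = 0.00173). The transcription factor Cebpb, which had 44.7 and 75.7 FPKM against 29.8 and 25.9 FPKM, spread widely between its wild-type libraries. Without wild-type replicate 1, 10 members of this list fell, and 1 fell without each of the other 3 libraries. In bulk RNA fewer cells of a type and less RNA per cell cannot be told apart.

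Several coagulation, monocyte and iron genes fell too. F10, coagulation factor X, had 84.1 and 90.6 FPKM in wild type and 30.7 and 37.1 FPKM in the labelled knockout, 2.58 times lower. F13a1, the transglutaminase that crosslinks fibrin and a gene of monocytes and tissue macrophages, had 104 and 97.9 FPKM against 39.8 and 41.4 FPKM (-1.29 ± 0.12, adjusted p = 0.000353). Both were tight within groups. Of 11 tested monocyte genes, F13a1, Fcgr4 and the calprotectin subunit S100a9 fell and the integrin Itga4 rose (4.58 and 4.12 FPKM against 8.28 and 8.35 FPKM). Of 16 tested iron genes, 4 fell and 1, Tfrc, rose. Beside these and the other list counts of this paragraph, 2.14% of all genes fell and 5.29% rose. Slc11a1, the pump that removes iron and manganese from phagosomes, had 40.2 and 59.9 FPKM against 22.3 and 21.3 FPKM, and Trf, transferrin, 292 and 335 FPKM against 189 and 191 FPKM. Of the iron list 1 fell and none rose without labelled knockout replicate 1 or 2, and 2 fell and 1 rose without wild-type replicate 2. Of 29 tested inflammatory genes, 5 fell and none rose, among them Cd14, the co-receptor for lipopolysaccharide (48.9 and 61.4 FPKM against 32.8 and 35.4 FPKM), Tlr2 (14.6 and 14.9 FPKM against 9.9 and 10.2 FPKM) and the T cell costimulator Cd86 (21 and 18.8 FPKM against 13 and 14.9 FPKM). No inflammatory gene passed without labelled knockout replicate 1 or 2, 2 fell without wild-type replicate 2, and 9 fell with median-of-ratios scaling. The 7 tested neutrophil markers include S100a9, and 2 of the 7 fell and none rose. The 10 listed, S100a9 among them, had a summed level of 154 and 153 FPKM in wild type and 70.2 and 107 FPKM in the labelled knockout. Elane, Mpo and Prtn3 were under 0.2 FPKM in all 4 libraries. The part of neutrophils in the values of S100a9 was not tested.

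Cadm1, an adhesion molecule, had 28.5 and 25.6 FPKM in wild type and 8.16 and 8.34 FPKM in the labelled knockout (-1.60 ± 0.11, adjusted p = 6.83e-05). Abca9, a lipid transporter of the ABC family, had 5.96 and 5.59 FPKM against 1.72 and 1.7 FPKM, and Bcam, a laminin receptor, 2.58 and 3.62 FPKM against 0.495 and 0.364 FPKM. Against 5.29% and 2.14% of all genes, 3 of 18 tested lipid genes of the LXR list rose and 2 fell. This became 1 and 0 without labelled knockout replicate 1 or 2, 5 and 1 without wild-type replicate 2, and 2 and 4 without wild-type replicate 1. Apoe, the apolipoprotein secreted by macrophages, had 4153 and 4848 FPKM against 2540 and 2841 FPKM (-0.74 ± 0.16, adjusted p = 0.0245), and Apoc2, the activator of lipoprotein lipase, 19.6 and 30.1 FPKM against 10.4 and 10.8 FPKM. The LXR target that moved most went the other way. Cd5l, a secreted protein of tissue macrophages that protects them from apoptosis, had 43.6 and 47.7 FPKM in wild type and 194 and 190 FPKM in the labelled knockout, a ratio of 4.2 (2.05 ± 0.17, adjusted p = 0.000221).

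**Figure D3:**
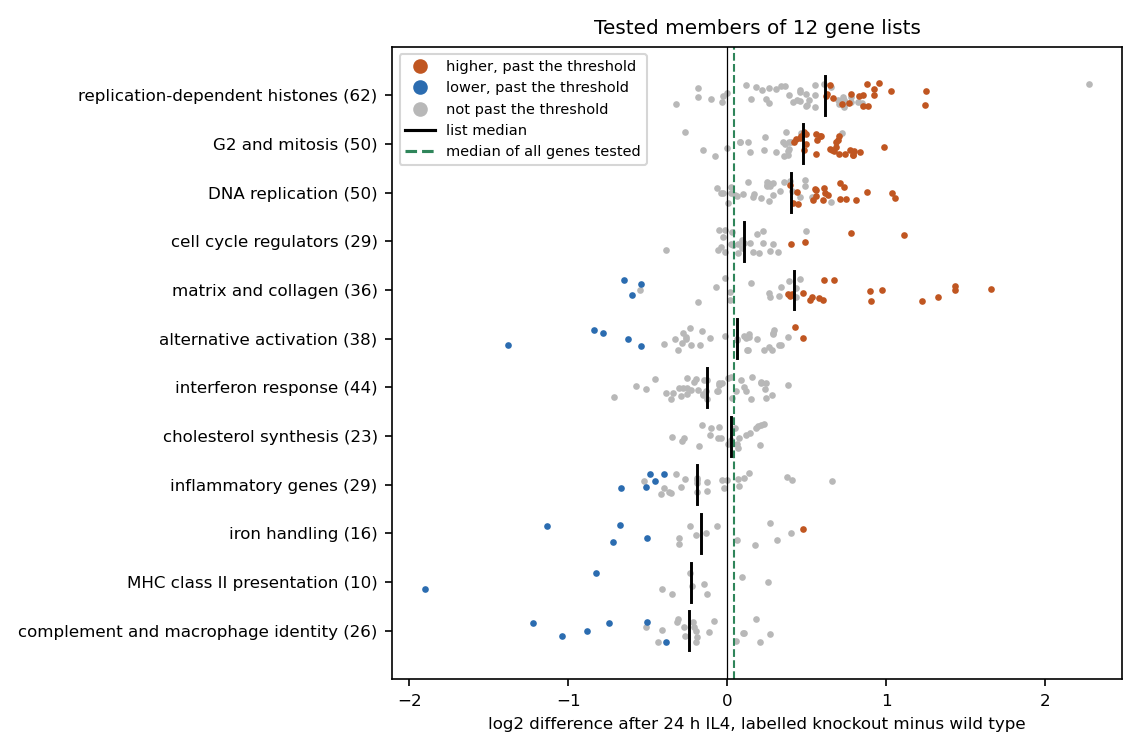
Each point is a tested member of a gene list, placed at its log2 difference after 24 h of IL4 on the x axis, with the number tested in brackets and the list median as a black line. The histone, mitotic and replication lists have medians of 0.62, 0.47 and 0.40 against 0.04 for all genes, and the list of complement and macrophage identity one of -0.24.

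Matrix genes rose from low levels. Of 36 tested, 18 rose and 3 fell, against 5.29% and 2.14% of all genes, with a median of 0.42. Col1a2, a chain of type I collagen, had 0.483 and 0.776 FPKM in wild type and 4.03 and 4.21 FPKM in the labelled knockout, a ratio of 6.55 (1.66 ± 0.10, adjusted p = 4.73e-05). Sparc, a collagen-binding matrix protein, had 0.617 and 0.629 FPKM against 3.48 and 3.28 FPKM, and the collagen-crosslinking enzyme Lox 0.277 and 0.231 FPKM against 2.41 and 2.36 FPKM. All 3 were under 1 FPKM in wild type and a few FPKM in the labelled knockout. The 3 that fell, Fn1, Thbs1 and the metalloproteinase Mmp19, had 12.9 to 43.3 FPKM in wild type. The markers of fibroblasts and stromal cells share Col1a2 with this list, so they are not a fully separate reading. Of these markers 4 of 4 tested (Col1a2, Dcn, Postn and Mgp) rose. The summed level of all 11 was 2.99 and 2.9 FPKM in wild type and 11.4 and 12.2 FPKM in the labelled knockout. The receptors that define those cells were low in every library, Pdgfra and Pdgfrb at 0 to 0.121 FPKM and Thy1 at 0 to 0.039 FPKM. The part of other cells in the matrix genes was not tested. Without labelled knockout replicate 1 or 2, 7 and 6 matrix genes rose, without wild-type replicate 2, 10 rose, and 1 rose when 1 FPKM was required in every library.

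Some receptor genes also differed. Axl, a receptor tyrosine kinase for the uptake of apoptotic cells, had 3.13 and 4.42 FPKM in wild type and 8.15 and 8.65 FPKM in the labelled knockout (0.99 ± 0.13, adjusted p = 0.00304), and its relative Mertk did not pass (15.8 and 16.3 FPKM against 18.9 and 18.5 FPKM). Ednrb, a receptor for endothelins, had 5.58 and 5.26 FPKM against 14.8 and 14.5 FPKM, with no overlap and a ratio of 2.71. Of 27 tested chemokine and cytokine receptors, 4 rose and 2 fell, against 5.29% and 2.14% of all genes, and the median was 0.01. The block left 2 higher and 1 lower, leaving out wild-type replicate 1 left 2 and 4, wild-type replicate 2 1 and 1, labelled knockout replicate 1 1 and 0, and labelled knockout replicate 2 none. Il1rl1, the receptor for interleukin 33, rose from 3.16 and 3.37 FPKM to 5.55 and 6 FPKM, and Tgfbr1, a receptor for TGF-beta, rose by 0.37. Csf2ra, the receptor for GM-CSF, fell from 28.6 and 40.7 FPKM to 19.2 and 17.9 FPKM, and the interferon gamma receptor Ifngr1 from 127 and 126 FPKM to 88.3 and 95.7 FPKM. Ccr3, more familiar from eosinophils, rose but was at most 2 FPKM.

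In other lists no member passed. This was so for 44 tested interferon response genes (median -0.13), 23 of cholesterol synthesis (0.02), 22 of fatty acid oxidation (-0.03), 31 of the lysosome (-0.08) and 24 ER chaperone and unfolded protein response genes (0.04). Among 20 tested genes of DNA methylation and its removal, Uhrf1 and the methyl-CpG binding factor Zbtb33 rose and the stress genes Gadd45b and Gadd45g fell. Of all genes, 5.29% rose and 2.14% fell. Gadd45b had 45.3 and 52.8 FPKM in wild type and 24.3 and 25.8 FPKM in the labelled knockout. Dnmt1 did not pass (12.1 and 13.8 FPKM against 13.9 and 14.8 FPKM).

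The genotype difference was set beside that before IL4 and after 10 h. No library is shared between the genotype comparisons at 0, 10 and 24 h, which passed for 2.7%, 2.84% and 7.43% of genes. Of the 781 genes at 24 h, 109 also passed at 0 h (14.0% of the 24 h calls and 38.4% of the 0 h calls) and 146 at 10 h (18.7% and 48.8%). At all 3 times 96 passed in the same direction, and 623 passed at neither earlier time. Of the 781, 70.0% had the same sign at 0 h and 73.4% at 10 h, against 51.9% and 55.6% of all genes tested. Passing at 1 time and not at another does not show a change, which was tested as the difference of the differences: from 0 to 24 h, 31 genes passed (0.295% of those tested, 10 up and 21 down), and from 10 to 24 h, 6 did (0.0571%, 1 up and 5 down). The first count ranged from 11 to 1169 when 1 library was left out, with 1169 without wild-type 0 h replicate 1, 142 without wild-type 24 h replicate 1, and 11 to 16 without wild-type 0 h replicate 2 or any 1 of the 4 labelled knockout libraries at 0 and 24 h.

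**Figure D4:**
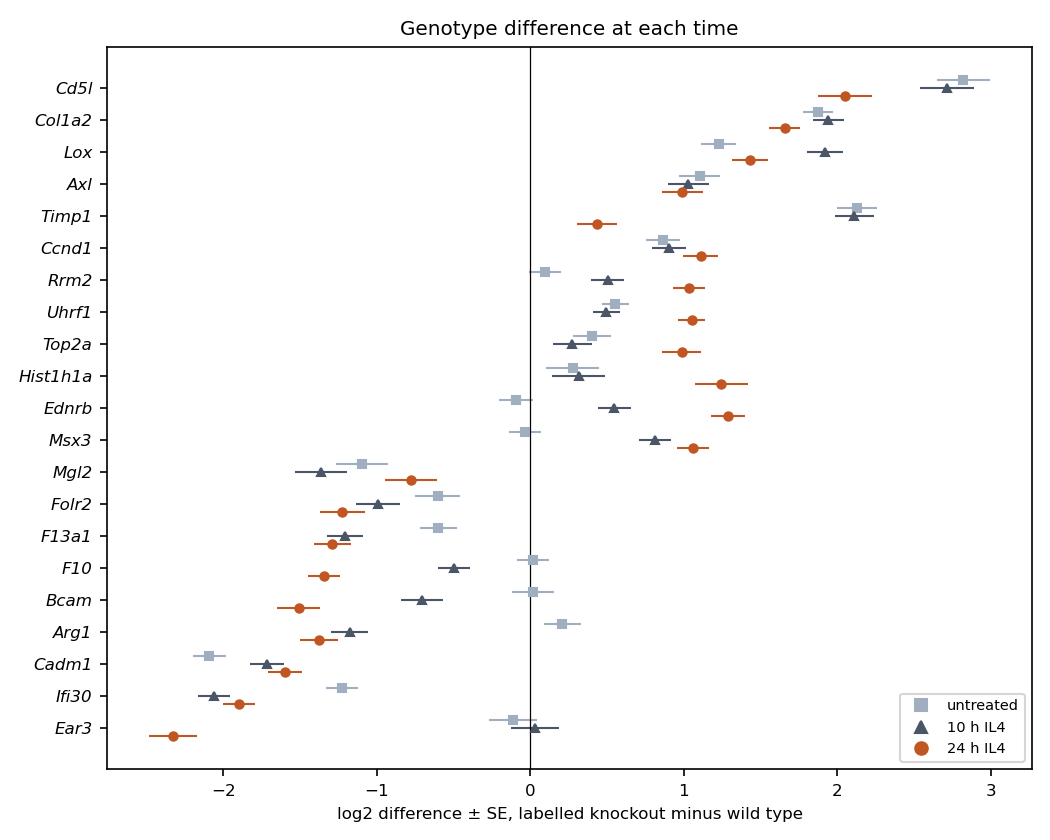
Each row is a gene and the x axis is the log2 difference, labelled knockout minus wild type, with bars for the standard error, before IL4 and after 10 and 24 h. Cd5l, Col1a2, Cadm1 and Axl lie on the same side at all times, Arg1, F10 and Bcam lie near 0 before IL4 and below 0 at 24 h, and Timp1 falls from 2.13 to 0.43.

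Few cell cycle genes passed before 24 h. Of the replication list 1 member rose at 0 h (Uhrf1) and 3 at 10 h, with medians of 0.13 and 0.16. Of the mitotic list 1 rose at each time and 1 fell at 10 h (medians 0.13 and 0.13), and of the histone list none passed (0.12 and 0.16). Of all 10510 genes tested, 199 rose and 85 fell at 0 h, and 184 rose and 115 fell at 10 h (medians 0.06 and 0.01). At 0 h, 43 of 50 replication, 42 of 50 mitotic and 42 of 62 histone genes were above 0, against 63.4% of all genes. At 10 h, 43, 41 and 47 were, against 53.6%. The log2(FPKM + 1) scale shrinks differences at low levels, such as those of Rrm2 at 0 h. Between 0 and 24 h IL4 raised Rrm2 by 0.97 in wild type and 1.91 in the labelled knockout, and Top2a by 1.46 and 2.04. Rrm2, with 0.559 and 0.451 FPKM in wild type and 0.695 and 0.521 FPKM in the labelled knockout at 0 h, was the 1 gene of these lists whose genotype difference changed from 0 to 24 h (0.94 ± 0.15, adjusted p = 0.0369). That call was lost with a pseudocount of 0.1 (1.1, adjusted p = 0.175) and in 6 of 8 fits without 1 library. The median change was 0.23 in the replication, 0.35 in the mitotic and 0.47 in the histone list, against -0.02 for all genes. Cyclin D1 differed at every time, by 0.87 at 0 h, 0.90 at 10 h and 1.11 at 24 h.

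Arg1, F10 and Bcam did not pass at 0 h and fell at 10 and 24 h. Arg1 had 186 and 159 FPKM in wild type and 71.7 and 79.6 FPKM in the labelled knockout at 10 h (-1.18, adjusted p = 0.000528), and its genotype difference changed by -1.59 ± 0.17 from 0 to 24 h (adjusted p = 0.0034) and by -0.20 from 10 to 24 h (adjusted p = 0.646). F10 had 0.876 to 0.947 FPKM in all 4 libraries at 0 h, and its difference was -0.50 at 10 h and -1.34 at 24 h (change from 0 h -1.36 ± 0.15, adjusted p = 0.0034). Mgl2 by contrast was lower at 0 h (5.55 and 3.82 FPKM against 1.96 and 1.32 FPKM), at 10 h and at 24 h, with differences of -1.10, -1.36 and -0.78, and its change from 0 h did not pass (0.32, adjusted p = 0.508). Ifi30 and Cadm1 also fell at all 3 times. Of the list of complement and macrophage identity, 4 genes fell at 0 h and 8 at 10 h, and none rose. The inflammatory list differed from its state at 24 h: 4 rose and 1 fell at 0 h, and 6 rose and 1 fell at 10 h (medians 0.10 and 0.12). Of all genes, 2.7% and 2.84% passed in either direction at these times. Ednrb went down with IL4 in wild type, from 27.9 and 22.7 FPKM to 5.58 and 5.26 FPKM, and from 23 and 24 FPKM to 14.8 and 14.5 FPKM in the labelled knockout (change of the difference 1.38 ± 0.15, adjusted p = 0.00363).

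**Figure D5:**
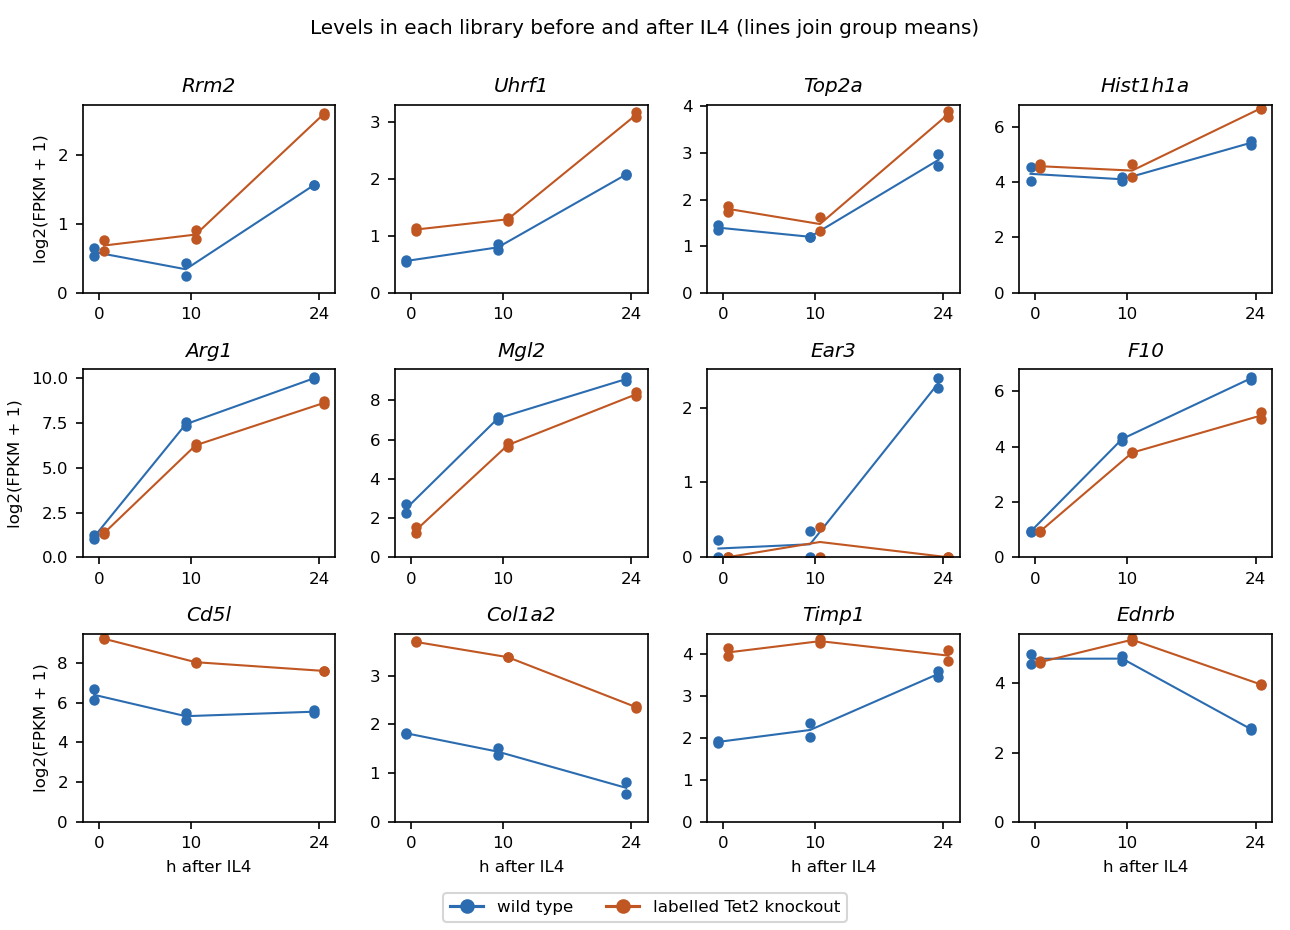
Levels as log2(FPKM + 1) in each library (points) at 0, 10 and 24 h of IL4 for 12 genes, with lines through the mean of the 2 libraries of a genotype. Rrm2, Uhrf1, Top2a and Hist1h1a rise at 24 h in both genotypes and end higher in the labelled knockout, and Timp1 rises in wild type to near the labelled knockout level.

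More matrix genes passed at the earlier times. Of the 36 tested, 27 rose and none fell at 0 h and again at 10 h. The medians were 1.10 and 0.94 against 0.42 at 24 h, on a scale that shrinks differences at low levels. Of all 10510 genes tested, 199 rose at 0 h and 184 at 10 h, with medians of 0.06 and 0.01. Timp1, an inhibitor of metalloproteinases, had 2.8 and 2.68 FPKM in wild type and 16.4 and 14.3 FPKM in the labelled knockout at 0 h, and 9.91 and 11.1 FPKM against 13.1 and 15.9 FPKM at 24 h, where it did not pass. Its change of -1.69 ± 0.18 from 0 to 24 h passed (adjusted p = 0.0034). Fn1, Ctgf, Cyr61, Fbln2 and Igfbp7 also passed, downward, and no matrix gene passed upward. The change of Ctgf, Cyr61 and Fbln2, all under 1 FPKM at 24 h, rests on the pseudocount of 1. With 0.1 it was -0.67 for Ctgf (adjusted p = 0.321), -0.67 for Cyr61 (adjusted p = 0.297) and -0.51 for Fbln2 (adjusted p = 0.406), and their differences at 24 h were 1.42, 1.39 and 1.29. Igfbp7 missed the threshold there too (-1.9, adjusted p = 0.0746), while Timp1 and Fn1 kept their calls. Fn1 turned from 0.72 at 0 h (0.769 and 1.15 FPKM against 2.33 and 2.08 FPKM) to -0.54 at 24 h. Cd5l differed by 2.82, 2.71 and 2.05 at the 3 times.

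In the TAM libraries 10 of 9897 genes passed (0.101%), 5 in each direction. Of the 781 genes, 642 were tested there, and 67.0% had the same sign, against 55.4% of all genes tested in both. Of the 642, 0 passed in TAM in the same direction and 1 in the opposite one. Of the 461 that rose in BMDM, 73.3% were above 0 in TAM, against 62.0% of all genes, and of the 181 that fell, 50.8% were below 0, against 38.0% of all genes. Of the replication list 47 of 48 tested genes, and of the mitotic list 46 of 49, were above 0 in TAM (medians 0.37 and 0.41, against 0.09 and 62.0% above 0 for all genes), and none passed. The histone list went the other way, with 0 of 5 tested genes above 0 and a median of -0.83, in libraries made from polyadenylated RNA. Top2a ranged from 5.72 to 12.8 FPKM in the 4 wild-type TAM libraries and was 8.2, 6.37, 37.6 and 33.1 FPKM in the labelled knockout ones, so that 2 of these lay above and 2 within the wild-type range. Arg1 had 25.6 to 88.3 FPKM in wild type and 1.36 to 6.55 FPKM in the labelled knockout, with no overlap, and came near the threshold (-3.21, adjusted p = 0.0538). Ifi30 and Fcgr4, lower in BMDM, were not lower in TAM (0.42 and 1.26, neither passed), and the matrix list lay below 0 there, with a median of -1.16 over 26 tested.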

How the data were processed

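RNA of 12 BMDM and 8 TAM libraries was used. The authors deposited FPKM for 23309 gene models in 1 table for each cell type. They name TopHat, Cuffdiff and mouse build mm9 in the submitters' processing notes. Tool versions, annotation and filters are not given in the sources used here. The TAM table does not name its unit, and FPKM was taken from the tool named and from its values. Of 2 symbols listed more than once the entry with the higher mean was kept, and 23154 symbols matched the reference. The 4 libraries of 5-hydroxymethylcytosine were not analysed here.

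Genes with 1 FPKM in at least 2 of the 12 BMDM libraries (10510) were fitted as log2(FPKM + 1) with limma 3.58.1 in R 4.3.3, as 6 groups without a block, with variances moderated by empirical Bayes along a trend in mean level (6 residual degrees of freedom, 10.3 in total). TAM were fitted apart (9897 genes with 1 FPKM in at least 4 libraries, 6 and 8.5). Intervals are 95% limma intervals. Adjustment was by Benjamini and Hochberg's method, with a threshold of 0.05. The fit was tested on simulated data. Python 3.11.15, pandas 2.3.3, numpy 2.4.6 and matplotlib 3.10.9 made tables and figures.

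Lists were described by counts and medians, with no test of a list. The comparison, gene lists and naming rule were chosen with earlier results of these data known. Named were the 12 highest and 12 lowest of the genes that passed without overlap (numbered models and small RNA genes left out), up to 4 members of a list with the smallest p, markers and Tet genes, and the 5 highest and 5 lowest of each change between times. Other genes in the text, among them Mcm3, Mcm6, Mcm7, Hells, Pcna, Ccna2, Socs1, Cish, Egr2, Il4ra, Myc, Dnmt1, Ear2, Ear11, Mertk and Rpph1, are list members or library facts named after their values were seen. Same-numbered libraries did not deviate together (correlations of replicate differences -0.141 to 0.149 over 15 pairs of groups), so the numbers were not taken to pair samples. Alternatives were other pseudocounts, filters, scalings, a replicate block, the 4 libraries alone and each library left out.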

Additional observations from a re-analysis of the deposited data

Results flagged for a closer look

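The genotype difference (labelled knockout minus wild type, log2(FPKM + 1)) changed between times for the genes below, by limma's test of that change adjusted by Benjamini and Hochberg's method. From 0 to 24 h it changed by -1.59 for Arg1, -1.36 for F10, -1.53 for Bcam, -2.21 for Ear3 and -1.69 for Timp1, and by 0.94 for Rrm2 and 1.38 for Ednrb. It changed by 1.14 for Rbpj, the DNA-binding factor of Notch signalling (adjusted p = 0.0121), by 1.09 for the homeobox gene Msx3 (adjusted p = 0.0154) and by -0.78 for Cd4 (adjusted p = 0.0483). With a pseudocount of 0.1 the calls of Cd4 (-0.37, adjusted p = 0.33), Rrm2 (1.1, adjusted p = 0.175), Bcam (-2.74, adjusted p = 0.0746) and Ear3 (-4.66, adjusted p = 0.113) were lost. Cd4 had 4.77 and 4.21 FPKM in wild type and 13 and 13 FPKM in the labelled knockout at 0 h, and 0.487 and 0.525 FPKM against 1.26 and 1.22 FPKM at 24 h.

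From 10 to 24 h it changed by -2.36 for Ear3, -1.68 for Timp1, -1.59 for Thbs1 and -0.98 for Irg1, the enzyme that makes itaconate (adjusted p = 0.0409). Irg1 had 2.18 and 2.11 FPKM in wild type and 4.48 and 4.88 FPKM in the labelled knockout at 10 h, and 2.47 and 2.49 FPKM against 2 and 2.38 FPKM at 24 h. Its call was lost with a pseudocount of 0.1 (-1.27, adjusted p = 0.0975) and in each of 8 fits without 1 library. The calls of Ear3 (-5.46, adjusted p = 0.15) and Gm12238 (7.45, adjusted p = 0.13) for this change were lost with that pseudocount too.

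Short RNA genes and unnamed models gave the largest of these values, and their estimates in libraries of long RNA are uncertain. From 0 to 24 h the change was -7.15 for Snord83b, -4.05 for Mir350, -2.45 for Snora43, 3.82 for Mirlet7a-1 and 4.56 for the pseudogene Rpl31-ps12. Mir350 was listed at 0 in both wild-type libraries at 0 h and at 17.4 and 20.2 FPKM in the labelled knockout ones. From 10 to 24 h the change was -3.33 for Gm8615 and 5.43 for Gm12238. In TAM, Folr2 was 181 FPKM in 1 wild-type library and 15 to 25.5 FPKM in the other 3.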

How the results depend on the processing

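With 2 libraries a group, counts of genes that passed were the least stable values. The 781 genes at 24 h became 44 with the 4 libraries alone (2 residual degrees of freedom) and 146 to 1251 with 1 library left out. With the replicate block, 619 passed (605 of them among the 781), and with the numbers crossed, a fit chosen after seeing the data, 684. The 31 changes from 0 to 24 h became 17 with a pseudocount of 0.1, 96 without the filter, 8 with 1 FPKM required in every library, 134 with median-of-ratios scaling, 119 with quantile normalization, and 11 to 1169 with 1 library left out. The 6 changes from 10 to 24 h became 3, 11, 3, 13 and 28 under the first 5 of these, and 4 to 7 with 1 library left out. With the 4 libraries alone, 2 replication, 0 mitotic, 1 histone, 7 matrix, 1 alternative activation and 0 complement and identity genes passed. A pseudocount of 0.1 left 12 replication and 11 mitotic genes, 1 FPKM in every library 9 replication, 8 mitotic and 3 matrix genes, and no filter 7 histone genes. Requiring 1 FPKM in every library cut the genes tested from 10510 to 8978. A list member can thus leave these counts because it was no longer tested. With 1 library left out, counts ran from 5 to 17 for replication, 6 to 26 for mitosis, 2 to 34 for histones, 6 to 19 for matrix, 2 to 6 for alternative activation and 1 to 10 for complement and identity. Of the 118 genes tested that the report or the paragraphs above name, 78 passed. Of these, 18 kept their call under every setting in which they were tested. Genes under 1 FPKM in any library, such as Col1a2, Sparc and Lox among the 18, were not tested where 1 FPKM was required in every library. Genes that turned sign had not passed. Retnla was 0.090 with quantile normalization, and Igfbp7 was -0.0037 after median-of-ratios scaling and -0.014 after quantile normalization. With 1 library left out, the difference ran from -0.57 to 0.0013 for Retnla, from -0.0036 to 0.038 for Igfbp7, from -0.40 to 0.18 for Cish, from -0.43 to 0.086 for Ear11, from -0.17 to 0.29 for Il4ra, from -0.20 to 0.17 for Myc, from -0.68 to 0.063 for Rpph1, from -0.34 to 0.55 for Socs1 and from -0.013 to 0.30 for Tet3. Read depth is unknown, so counting error could not be given.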

Other observations

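Genes of ribosomal proteins, a group chosen after their values were seen, lay low in the labelled knockout after 24 h of IL4. Of 80 tested, 71 were below 0, 5 fell and none rose, with a median of -0.27 against 0.04 for all genes. Of all 10510 genes tested, 4503 were below 0, and 2.14% fell. The median was -0.04 with quantile normalization, where 43 were below 0, 3 rose and 8 fell, and -0.33 with median-of-ratios scaling, where 18 fell. Without labelled knockout replicate 1 it was -0.10, with 56 below 0 and none past the threshold.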
